A study of Mus musculus with 30 samples.

Results

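Bone marrow derived macrophages, which are cells grown from mouse marrow into macrophages, were pretreated with OSW-1 or with itraconazole and then stimulated with lipopolysaccharide (LPS), and their polyadenylated RNA was sequenced. The comparison set out here is OSW-1 with LPS against itraconazole with LPS: 3 libraries against 3, or 6 of the 30 libraries of the series. Its groups are set by the labels, and the comparison and the gene lists were chosen with earlier results of these data known. Both groups are of C57BL/6 wild-type mice labelled with the same mouse numbers, 1 to 3. One group was given 0.3 µM OSW-1 and the other 1 µM itraconazole for 18 h, and both then received LPS at 10 ng/mL with a labelled stimulation time of 18, taken as hours. The other groups used are LPS alone, OSW-1 alone and itraconazole alone, each with the same mouse numbers. The labels give OSW-1 alone and itraconazole alone the same 18 h of pretreatment and no stimulation time after it. LPS and the added time therefore cannot be told apart where values with and without LPS are compared below. Untreated macrophages of 3 Ch25h-/- mice, which lack cholesterol 25-hydroxylase, serve once as a technical reference, unstimulated and with LPS. No vehicle is named for untreated cells, the mice's ages are not in the labels, and whether the compounds stayed on during LPS is not stated. The doses of the compounds differ, so compound and dose cannot be told apart in any value below.

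LPS is a bacterial cell wall lipid that macrophages sense through Tlr4. The receptor drives NF-kB and AP-1 factors, which switch on cytokine and chemokine genes early, and a later interferon arm, which acts through Stat2, Irf9 and their partners on interferon-stimulated genes. OSW-1 is a steroidal saponin from a plant and itraconazole is a triazole antifungal. Both bind the oxysterol-binding protein Osbp, which carries cholesterol from the endoplasmic reticulum (ER) to the Golgi in exchange for the lipid PI4P, and itraconazole is also known to act on other sterol-handling proteins. When ER cholesterol is low, SREBP2 moves to the Golgi and raises the genes of cholesterol synthesis and uptake, while LXR receptors, which oxysterols activate, raise the genes of cholesterol efflux.

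Library totals ran from 23946536 to 29630084 counts with OSW-1 and LPS and from 36389256 to 38320082 with itraconazole and LPS. The groups differ in a technical feature: every count is even in the itraconazole libraries, as in 20 of the 30 libraries, while 49.8 to 50.3% of the nonzero counts are odd in the OSW-1 libraries with LPS. Levels are given in CPM, counts scaled to the library size, after TMM scaling, and are listed in the order of mice 1, 2 and 3. Differences are log2 fold changes with their standard error, positive where OSW-1 was higher. With the even counts halved they shifted a little, for Cyp51 from -0.45 to -0.43. At the adjusted p threshold of 0.05 used below, Cyp51 (0.0569) and Atf3 (0.0521) then no longer passed (edgeR quasi-likelihood test). Mitochondrially encoded transcripts held 1.04 ± 0.0893% of counts with OSW-1 and 1.08 ± 0.118% with itraconazole (SD, n = 3; exact permutation test, two-sided, p = 0.9). The 20 most abundant genes held 12.1 ± 0.89% and 15.8 ± 1.17% (exact permutation p = 0.1, the smallest that 3 against 3 allows). Mouse 3 of the itraconazole group stood apart in many genes described below, with low inflammatory cytokines and high Lyz2, and results that turn on it are given without it. Libraries of the same mouse number shared part of this. With LPS alone mouse 3 was the lowest in Il6, Csf2 and Nos2 but the highest in Il1b. With OSW-1 and LPS mouse 3 was the highest in Lyz2 but also in Il6.

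Of 13173 genes tested, 3041 were higher with OSW-1 than with itraconazole (23.1%) and 3358 were lower (25.5%), at an adjusted p under 0.05 (edgeR quasi-likelihood test, Benjamini-Hochberg over all tested genes). Such genes are said to have been called. With a change of at least 2-fold as well, 620 were higher (4.71%) and 1417 lower (10.8%). With 48.6% of tested genes called in either direction, the counts of each gene group below stand against 23.1% and 25.5%. The libraries of both groups did not overlap in 6967 tested genes (52.9%), the share beside which any lack of overlap below stands. For the largest changes it was a condition of being named. The median log2 fold change over all tested genes was 0. The genes higher with OSW-1 were led by cytokines and neutrophil chemokines, ribosome biogenesis factors and transfer RNA synthetases. Those lower were led by glycolytic enzymes, lysosomal hydrolases, complement and scavenger genes, macrophage markers, class I antigen presentation genes and interferon-stimulated genes. The sterol arm of cholesterol synthesis and fatty acid genes were lower by less, with medians of -0.48 and -0.43. Leaving out mouse 3 of the itraconazole group left 2608 genes higher and 3003 lower. In whole cultures such as these, fewer cells of a kind and less RNA per cell cannot be told apart.

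**Figure D1:**
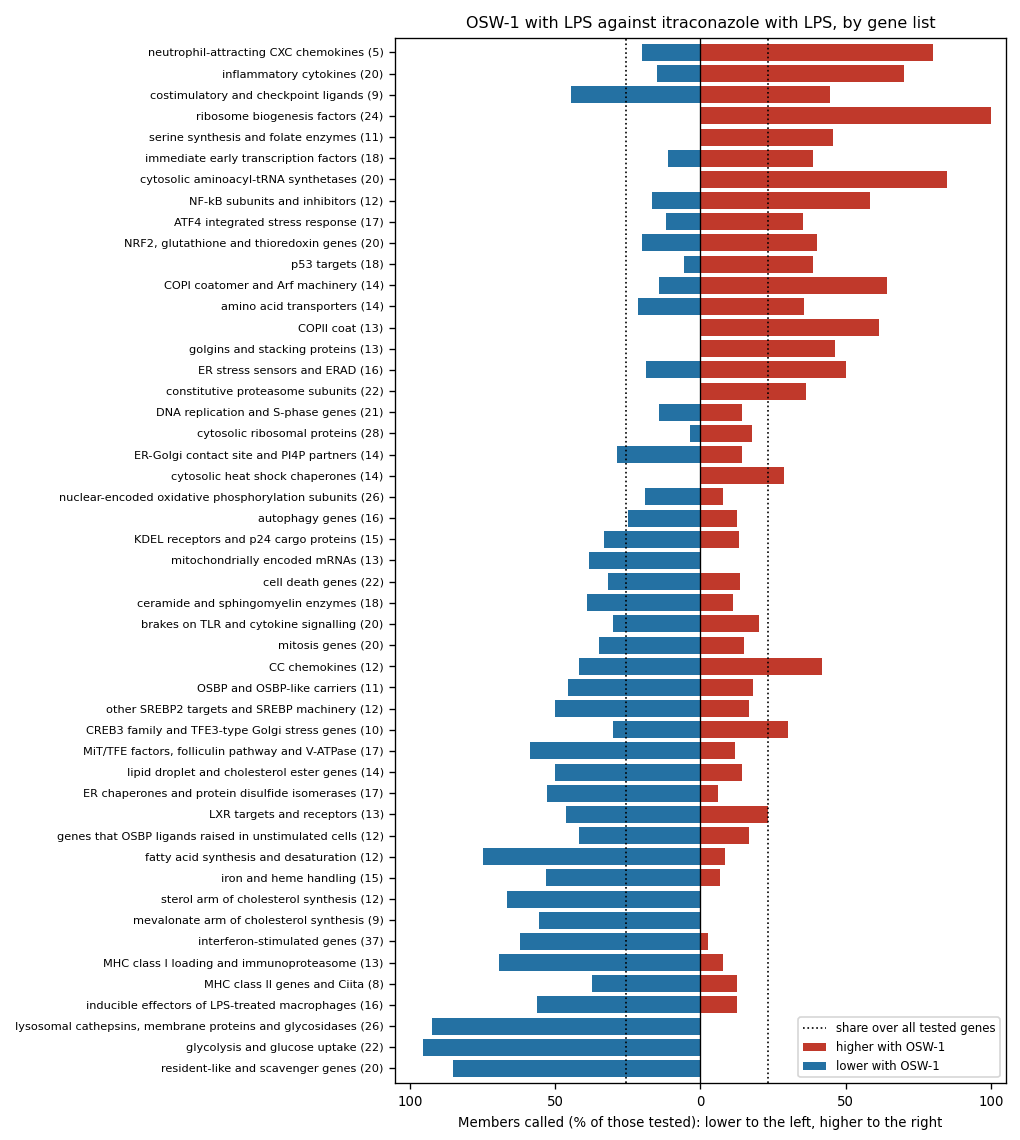
Share of each gene list's tested members called higher (red, to the right) or lower (blue, to the left) with OSW-1 and LPS than with itraconazole and LPS, in percent, with the number tested in brackets and lists ordered by their median log2 fold change. Dotted lines mark the shares over all tested genes (23.1% higher, 25.5% lower); ribosome biogenesis factors reach 24 of 24 higher and glycolysis 21 of 22 lower.

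The growth factor Csf2 and the subunits of interleukins 12 and 23 were far higher with OSW-1, while Il1b was not called. Of 20 inflammatory cytokines 14 were higher with OSW-1 and 3 lower, with a median log2 fold change of 1.19. Csf2, which encodes the granulocyte-macrophage growth factor GM-CSF, was at 406, 459 and 788 CPM with OSW-1 and at 3.42, 2.47 and 1.31 CPM with itraconazole. The groups lay far apart, at 7.85 ± 0.47 on the log2 scale (adjusted p = 6.51e-10). LPS alone gave 0.369, 0.12 and 0 CPM, so both compounds stood above it. Csf1, the macrophage growth factor, was at 759, 672 and 546 CPM against 122, 124 and 52.7 CPM (2.73 ± 0.31, adjusted p = 1.12e-07), and Lif, a cytokine of the interleukin 6 family, at 9.59, 16.8 and 17.5 CPM against 0.311, 0.344 and 0.343 CPM (5.44 ± 0.62, adjusted p = 1.04e-07).

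The subunits of interleukins 12 and 23 moved together. Other members of the interleukin 12 family, Ebi3 and Il27, were higher by less (0.81 ± 0.14 and 1.09 ± 0.37). Over LPS alone Ebi3 gave -0.15 with OSW-1 and -0.97 with itraconazole, and Il27 gave 1.15 and 0.05. Il12b, the subunit shared by interleukins 12 and 23, was at 511, 645 and 779 CPM with OSW-1 and 49.1, 28.4 and 4.17 CPM with itraconazole, a difference of 4.57 ± 0.71 (adjusted p = 1.46e-05, and 5.31 without itraconazole mouse 1 and 5.28 with the mouse as a block). Itraconazole mouse 3 was the lowest of these by far, and the groups did not overlap. The partner subunits followed: Il12a was at 18.3, 25.6 and 71.8 against 1.12, 1.03 and 1.31 CPM (5.06 ± 0.58, adjusted p = 4.21e-06, and 4.24 without OSW-1 mouse 3) and Il23a at 17.7, 16.1 and 40.2 against 0.994, 0.803 and 0.744 CPM (4.86 ± 0.50, adjusted p = 1.31e-06). Il6, the fever and acute-phase cytokine, was at 1819, 1891 and 2995 CPM against 391, 355 and 146 CPM (2.91 ± 0.40, adjusted p = 2.1e-06), over 5.04, 5.7 and 0.973 CPM with LPS alone.

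Not every cytokine separated the compounds. Il1b, a product of the inflammasome pathway, was at 9040, 10230 and 14540 CPM with OSW-1 and 12280, 11330 and 9690 CPM with itraconazole, a log2 difference of 0.02 ± 0.31 (adjusted p = 0.965), although both were above the 1586, 1095 and 2029 CPM of LPS alone. Il1a gave 0.50 ± 0.45 (adjusted p = 0.386). Tnf was at 676, 706 and 1065 CPM against 508, 411 and 111 CPM (1.25 ± 0.42, adjusted p = 0.0167), and that call rests on itraconazole mouse 3: without it the difference was 0.83 (adjusted p = 0.0887). Leaving out OSW-1 mouse 3 also ended it (1.01, adjusted p = 0.0759). Il1rn, the natural blocker of the interleukin 1 receptor, was lower, at 365, 389.8 and 621 CPM against 2234, 2048 and 969 CPM (-1.93 ± 0.31, adjusted p = 1.86e-05). Il10, an anti-inflammatory cytokine, was low throughout, at 3.29, 3.29 and 4.26 CPM with OSW-1 and 1.55, 2.01 and 1.09 CPM with itraconazole (1.22 ± 0.32, adjusted p = 0.00269), and LPS alone gave 4.42, 3.12 and 3.4 CPM. Tnfsf9 and Ifnb1 were the other lower cytokines, and the count of 3 fell to 1 without mouse 1 of either group or without OSW-1 mouse 2.

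**Figure D2:**
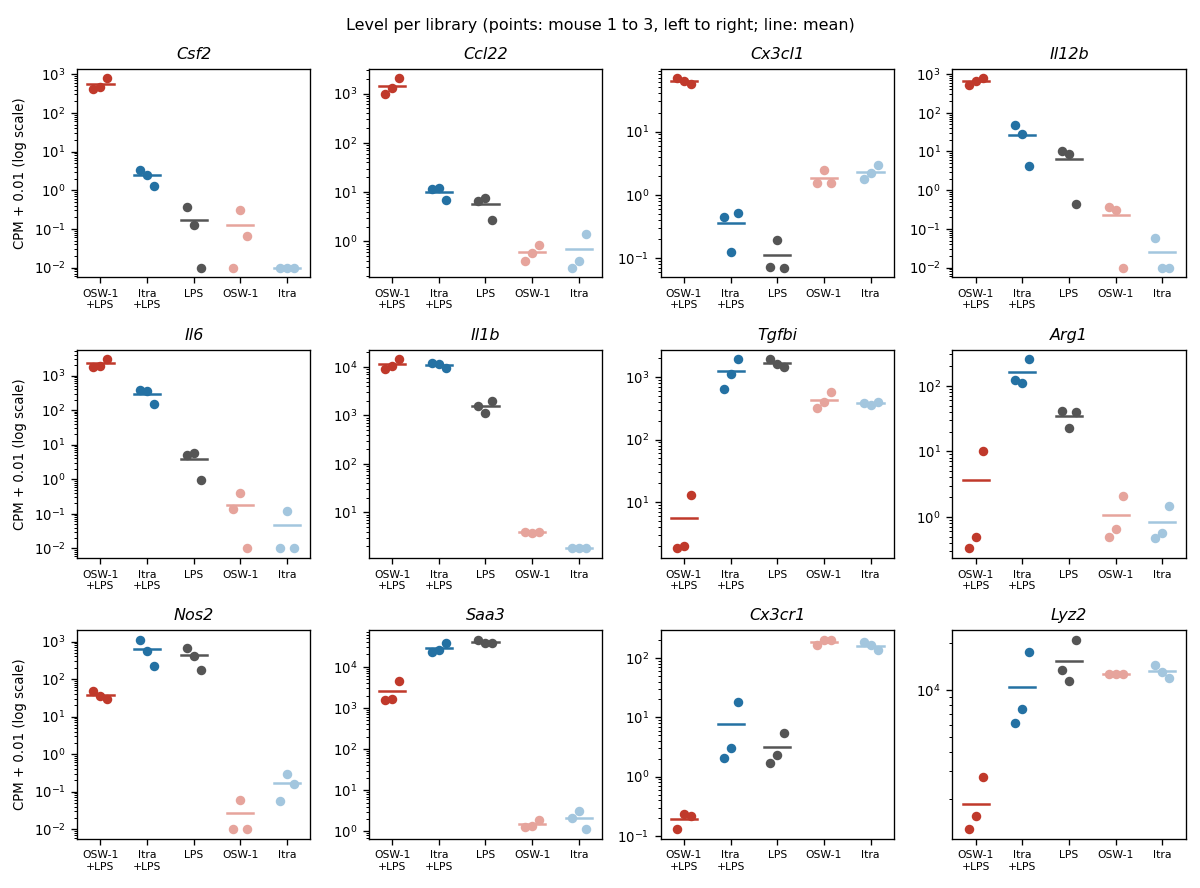
CPM plus 0.01 on a log axis for 12 genes in 5 groups of 3 libraries (OSW-1 with LPS, itraconazole with LPS, LPS alone, OSW-1 alone, itraconazole alone), with 1 point per mouse and a line at the mean. Csf2, Ccl22 and Cx3cl1 stand high in the OSW-1 libraries with LPS, Il1b is level between both compounds, and Tgfbi, Arg1, Saa3 and Cx3cr1 are low with OSW-1 and LPS.

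Chemokines moved in both directions. The neutrophil-attracting CXC chemokines were higher in 4 of 5: Cxcl1 at 592, 658 and 710.0 CPM against 102, 109 and 65.7 CPM (2.82 ± 0.26, adjusted p = 3.46e-09), Cxcl2 at 3647, 3564 and 5138 against 1402, 1144 and 649 CPM (1.95 ± 0.40, adjusted p = 0.000289), Cxcl5 by 2.53 and Cxcl3 by 1.60. Ppbp, a platelet chemokine, was lower (-1.52 ± 0.37). With LPS alone Cxcl1 was only at 1.6, 1.8 and 0.79 CPM, so both compounds gave far more of it, and OSW-1 the most. Of 12 CC chemokines 5 were higher and 5 lower. Ccl3 and Ccl4, attractants of inflammatory cells, were higher by 2.83 ± 0.37 and 2.02 ± 0.31, Ccl3 being at 4269, 4486 and 6330 CPM against 1005, 784 and 336 CPM. The monocyte attractants Ccl2, Ccl7, Ccl8 and Ccl12 were lower, and Ccl6 by less (-0.87 ± 0.26, adjusted p = 0.00696), a call lost without OSW-1 mouse 1 or 2 (-0.59 and -0.68), with -1.51 without OSW-1 mouse 3. Ccl2 was at 199, 211 and 355 CPM against 2216, 1516 and 245 CPM (-2.38 ± 0.60, adjusted p = 0.00216, and -1.79 without itraconazole mouse 1), with itraconazole mouse 3 inside the range of the OSW-1 libraries. Ccl8 was at 0, 0.112 and 0.378 CPM against 7.27, 6.77 and 9.78 CPM (-5.49 ± 0.45, adjusted p = 4.67e-10, the OSW-1 counts being mostly of mouse 3). Ccl5 gave 0.32 ± 0.19 (adjusted p = 0.177).

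Ccl22 and Ccl17, ligands of Ccr4 on T cells, and Cx3cl1, the membrane-bound chemokine fractalkine, are neighbours on chromosome 8, and all were higher with OSW-1. Ccl22 (GRCm38, chr8:94745590-94751699) was at 973, 1273 and 2041 CPM with OSW-1 and 11.4, 12.2 and 6.86 CPM with itraconazole, 7.14 ± 0.47 apart (adjusted p = 1.15e-11), while LPS alone gave 6.58, 7.74 and 2.73 CPM. Cx3cl1 (chr8:94772009-94782427) was at 69.5, 62.2 and 56.4 CPM against 0.435, 0.115 and 0.515 CPM (7.46 ± 0.44, adjusted p = 2.26e-12). Ccl17 was at 7.74, 7.26 and 21.3 CPM against 0.373, 0.459 and 0 CPM (5.44 ± 0.73, adjusted p = 1.02e-05, and 6.04 without itraconazole mouse 2 and 4.85 without itraconazole mouse 3 and 4.75 without OSW-1 mouse 3). The receptor of fractalkine went the other way: Cx3cr1 was at 0.12, 0.225 and 0.206 CPM with OSW-1 and 2.05, 3.04 and 18.2 CPM with itraconazole (-5.37 ± 0.87, adjusted p = 1.88e-05, and -3.76 without itraconazole mouse 3). Without LPS, Cx3cr1 was at 163, 202 and 202 CPM with OSW-1 and 183, 164 and 135 CPM with itraconazole, far above every LPS-treated library of both compounds. Itraconazole mouse 3 held most of the Cx3cr1 of its group.

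The promoter windows of Cxcl1, Cxcl2, Il6 and Ccl22 are shown because these genes are among the inflammatory ones that rose and because their windows hold the NF-kB motif GGGA, then 4 bases of any kind, then CC, searched on both strands. Each runs over the 250 bases before the start site in RefSeq (GRCm38.p6), 5′ to 3′ on the gene's plus strand, in lower case with every match in capitals, and matches on opposite strands of a near-palindrome merge into 1 run. They lie at chr5:90890995-90891244, chr5:90903649-90903898, chr5:30012864-30013113 and chr8:94745434-94745683.
Cxcl1: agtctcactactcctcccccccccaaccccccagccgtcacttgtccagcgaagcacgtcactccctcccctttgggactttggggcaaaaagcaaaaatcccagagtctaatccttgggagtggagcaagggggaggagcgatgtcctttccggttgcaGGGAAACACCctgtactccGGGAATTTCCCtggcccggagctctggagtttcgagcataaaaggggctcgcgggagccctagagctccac
Cxcl2: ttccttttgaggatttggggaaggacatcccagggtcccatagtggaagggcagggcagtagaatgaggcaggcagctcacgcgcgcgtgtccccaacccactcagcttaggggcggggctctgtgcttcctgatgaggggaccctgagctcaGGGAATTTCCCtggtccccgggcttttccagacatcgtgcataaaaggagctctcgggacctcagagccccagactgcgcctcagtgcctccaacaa
Il6: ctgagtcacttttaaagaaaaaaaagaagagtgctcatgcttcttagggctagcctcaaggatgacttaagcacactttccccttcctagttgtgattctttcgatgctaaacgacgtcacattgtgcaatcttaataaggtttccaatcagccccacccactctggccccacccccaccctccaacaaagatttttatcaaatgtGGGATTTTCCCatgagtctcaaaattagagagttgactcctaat
Ccl22: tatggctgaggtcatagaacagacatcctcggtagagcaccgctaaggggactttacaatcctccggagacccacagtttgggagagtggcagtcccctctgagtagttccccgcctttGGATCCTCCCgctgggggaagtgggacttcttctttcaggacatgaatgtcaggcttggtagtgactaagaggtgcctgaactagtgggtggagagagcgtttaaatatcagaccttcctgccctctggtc

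The windows of Csf2, Cx3cl1 and Il12b hold no such match. The motif was found in 17.3% of all 27025 promoters of the table and in 22.3% of the 10074 that belong to tested genes. It was in 6 of 13 inflammatory cytokine promoters, 3 of 4 neutrophil chemokine promoters and 5 of 9 promoters of NF-kB genes with an entry. Over all called genes the share hardly differed, at 21.9% for those higher and 22.6% for those lower, with 22.3% for genes not called. Among called genes with a rise of at least 4-fold the share was 30.2%, and among those with a fall of at least 4-fold 22.2%. The AP-1 motif TGANTCA was in 6.7% and 11.5% of these, and in 4.45% of tested genes' promoters. Over all called genes AP-1 was in 4.3% of those higher and 5.25% of those lower. These shares are descriptions of letters in a window and were not tested.

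NF-kB genes themselves were mostly higher. Of 12 subunits and inhibitors 7 were higher and 2 lower (1 without itraconazole mouse 1 or 2 or OSW-1 mouse 1 or 3), led by Rel, the c-Rel subunit, at 104, 109.6 and 92.7 CPM against 27.1, 24.9 and 16.8 CPM (2.15 ± 0.15, adjusted p = 2.92e-11). Nfkbiz, a nuclear cofactor needed for a set of late cytokine genes, was at 287, 304 and 307 against 85.2, 88 and 80.0 CPM (1.83 ± 0.17, adjusted p = 3.81e-09), and Nfkb1 gave 1.35 ± 0.11. Relb and Nfkbia were not called (0.03 ± 0.14 and 0.33 ± 0.17). Among 18 immediate early factors 7 were higher, with Nr4a3 at 3.49 ± 0.46, Nr4a1 at 2.44 ± 0.34 and Myc at 1.72 ± 0.27. Fos was lower (-1.32 ± 0.26), and the call on Atf3 (-0.66 ± 0.27, adjusted p = 0.0476) ended under 10 of 13 alternative settings, among them the mouse as a block (adjusted p = 0.0543) and itraconazole mouse 1 left out (-0.36, adjusted p = 0.313).

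Brakes on receptor signalling did not move as a group, with 4 of 20 higher and 6 lower. Cish, a cytokine-induced inhibitor, was higher (2.00 ± 0.32, adjusted p = 1.67e-05), and Dusp2, a phosphatase for MAP kinases, was higher (1.72 ± 0.26). Its relative Dusp1 was lower, at 141, 153 and 133 CPM against 367, 314 and 267 CPM (-1.15 ± 0.18, adjusted p = 1.37e-05). Costimulatory and checkpoint genes for T cells moved both ways, and of 9 genes 4 were higher and 4 lower. Cd40 was at 798, 889 and 871 CPM against 136, 129.9 and 73.9 CPM (2.91 ± 0.28, adjusted p = 5.95e-09), Cd80 at 53, 63.6 and 58.4 against 12, 11.3 and 8.52 CPM (2.46 ± 0.20), and Icosl gave 2.02 ± 0.20. Cd274 and Pdcd1lg2, the PD-1 ligands, were lower (-1.11 ± 0.28 and -1.58 ± 0.54), as was the checkpoint receptor Havcr2 (-2.64 ± 0.28). Cd86, the partner of Cd80, gave -0.78 ± 0.32 (adjusted p = 0.0476), a call lost without mouse 1 or 2 of either group. The call on Pdcd1lg2 was lost without OSW-1 mouse 1 or 2 (-1.11 and -1.39), and its value was -2.77 without OSW-1 mouse 3. Without either of these mice 2 were called lower.

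Effectors that LPS induces in macrophages were mostly lower, with 9 of 16 called lower and 2 higher. Nos2, the inducible nitric oxide synthase, was at 48, 34.6 and 29.9 CPM with OSW-1 and 1106, 568 and 228 CPM with itraconazole (-4.08 ± 0.51, adjusted p = 8.21e-07, and -3.41 without itraconazole mouse 1), and LPS alone gave 691, 409 and 174 CPM. Arg1, which competes with it for arginine, was lower as well, at 0.321, 0.486 and 10.0 CPM against 122, 111 and 255 CPM (-5.45 ± 0.67, adjusted p = 4.01e-07, and -8.63 without OSW-1 mouse 3), with OSW-1 mouse 3 well above the other 2 mice of its group. The acute-phase genes Saa3 and Hp were lower (-3.48 ± 0.46 and -4.87 ± 0.37, Saa3 -4.16 without OSW-1 mouse 3). Saa3 was at 1581, 1638 and 4530 CPM against 23510, 25930 and 37040 CPM, one of the most abundant transcripts of the itraconazole libraries. Within the prostaglandin pathway the cyclooxygenase gene Ptgs2 was higher, at 10260, 10100 and 11590 CPM against 3859, 2598 and 1007 CPM (2.10 ± 0.51, adjusted p = 0.00137), while the downstream synthase Ptges was lower (-1.91 ± 0.26, adjusted p = 1.57e-06).

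Interferon-stimulated genes were lower with OSW-1. Of 37, 23 were lower and 1 higher, with a median of -0.74. Irf7, which amplifies interferon production, was at 398, 451 and 552 CPM against 1745, 1576 and 1332 CPM (-1.73 ± 0.25, adjusted p = 3.37e-06), with no overlap between groups. Cxcl9, a chemokine that interferon gamma induces, gave -3.58 ± 0.40, and its relative Cxcl10 was not called, at 261, 287 and 255 CPM against 637, 476 and 183 CPM (-0.69 ± 0.44, adjusted p = 0.209). Ifit3 gave -1.48 ± 0.31 and Bst2, the virion tether tetherin, -1.42 ± 0.16. The sole gene called higher was Gbp3 (0.92 ± 0.29, adjusted p = 0.0113), and it was not called without itraconazole mouse 3 (0.57, adjusted p = 0.0745). Members of the Gbp, Ifit and Oas families are close paralogs whose reads the counting could have split.

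The windows of Bst2 (chr8:71537473-71537722, minus strand gene) and Ifit3 (chr19:34583279-34583528) are shown as examples of the interferon response core GAAA, then 2 bases of any kind, then GAAA, read 5′ to 3′ in the gene's direction with matches on either strand in capitals; in Bst2 the matches overlap in 1 run.
Bst2: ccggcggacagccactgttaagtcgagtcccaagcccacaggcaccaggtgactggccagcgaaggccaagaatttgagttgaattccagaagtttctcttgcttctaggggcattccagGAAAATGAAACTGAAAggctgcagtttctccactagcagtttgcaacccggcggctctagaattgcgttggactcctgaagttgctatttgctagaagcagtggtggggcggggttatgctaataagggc
Ifit3: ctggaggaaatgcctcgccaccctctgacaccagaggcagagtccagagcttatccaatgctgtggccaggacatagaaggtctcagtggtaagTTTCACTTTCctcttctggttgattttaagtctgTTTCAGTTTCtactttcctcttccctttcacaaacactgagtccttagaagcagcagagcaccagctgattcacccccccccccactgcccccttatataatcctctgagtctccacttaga

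The core was in 15 of 27 promoters of the list (55.6%) against 2.83% of tested genes' promoters, and in 2.13% of promoters of genes called higher and 3.93% of those called lower. With a change of at least 4-fold the shares lay closer, at 4.47% for rises and 5.1% for falls. These shares were not tested. Genes of class I antigen presentation were also lower: 9 of 13 loading and immunoproteasome genes were lower and 1 was higher. B2m was at 1894, 1882 and 2485 CPM against 4116, 4274 and 4291 CPM (-1.02 ± 0.12, adjusted p = 2.66e-07), Tapbp gave -1.01 ± 0.12 and Psmb9 -1.28 ± 0.15. In class II, the peptide editors H2-DMa (-1.69 ± 0.27) and H2-DMb1 (-2.94 ± 0.28) were lower, while the peptide-binding chains did not move with them: H2-Eb1 was higher (0.75 ± 0.31, adjusted p = 0.0452, a call lost with any 1 itraconazole mouse left out and without OSW-1 mouse 1 or 3), and H2-Aa and Cd74 were not called (-0.68 ± 0.47 and 0.54 ± 0.32, Cd74 with adjusted p = 0.00663 with the mouse as a block).

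**Figure D3:**
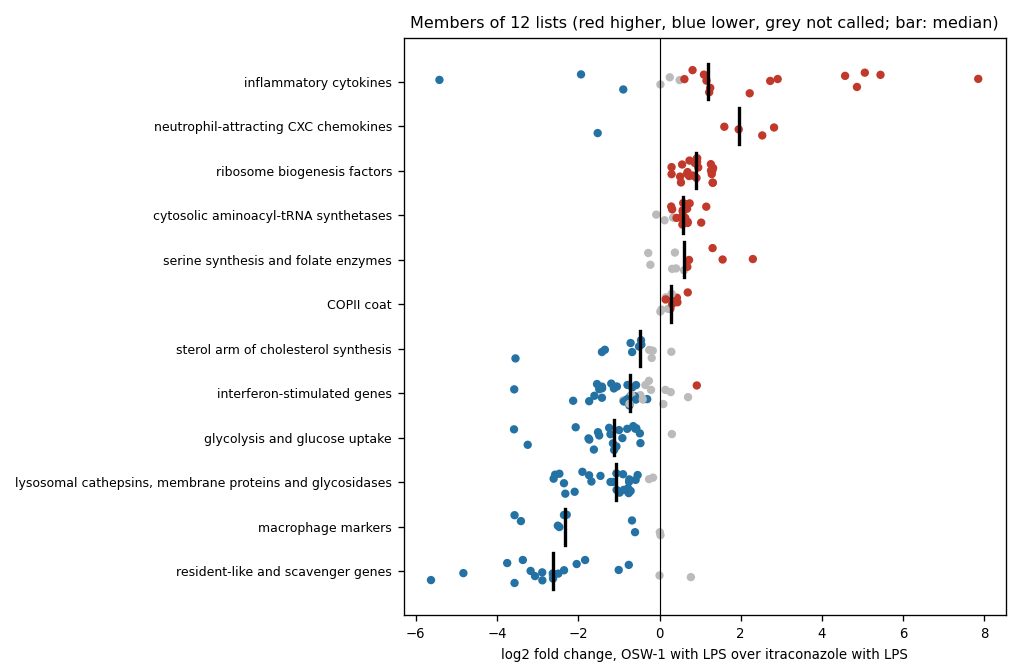
Log2 fold change of OSW-1 with LPS over itraconazole with LPS for each tested member of 12 lists, 1 point per gene, red where called higher, blue where called lower, grey where not called, with a black bar at the list's median. Cytokines spread over the widest range, ribosome biogenesis factors all lie above 0 and resident-like macrophage genes reach a median of -2.63.

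Cholesterol synthesis genes were lower with OSW-1 than with itraconazole in most cases. In the mevalonate arm 5 of 9 were lower and none higher (1 with the mouse as a block), and in the sterol arm 8 of 12 were lower and none higher. Dhcr7, a reductase of the last steps of the pathway, was at 2.37, 2.62 and 2.75 CPM against 5.53, 5.39 and 9.78 CPM (-1.42 ± 0.22, adjusted p = 9.83e-06). Fdps, which makes farnesyl diphosphate, was at 7.3, 5.84 and 8.63 CPM against 13.3, 13 and 19.1 CPM (-1.06 ± 0.23, adjusted p = 0.000605). Neither gene overlapped between groups, as held for 52.9% of all tested genes. LPS alone held them at 49.2, 52.6 and 49.3 CPM and at 93.4, 96.5 and 70.1 CPM. Pmvk, a kinase of the mevalonate arm, gave -1.25 ± 0.20 and the sterol isomerase Ebp -0.67 ± 0.12. The sterol-arm count fell to 4 without itraconazole mouse 3, to 4 without OSW-1 mouse 1 and to 5 without OSW-1 mouse 2.

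Some SREBP2 targets were not called. Hmgcs1 gave -0.26 ± 0.13 (adjusted p = 0.11), Sqle, which oxidises squalene, 0.29 ± 0.20 (adjusted p = 0.242) and Insig1, the ER anchor of the SREBP complex, 0.29 ± 0.15 (adjusted p = 0.101). Cyp51, the enzyme that azoles inhibit in fungi, gave -0.45 ± 0.18 (adjusted p = 0.0451), a call that ended under 8 of 13 alternative settings, among them itraconazole mouse 3 left out (-0.38, adjusted p = 0.144). Without LPS the same 3 genes and Cyp51 were lower with OSW-1: Hmgcs1 gave -1.02 ± 0.13, Sqle -1.17 ± 0.20, Insig1 -1.03 ± 0.15 and Cyp51 -1.64 ± 0.18. The tested difference between both contrasts was called for each of them (adjusted p = 0.00317, 0.000365, 3.29e-05 and 0.000858). For Dhcr7 and Fdps, at -0.87 ± 0.18 and -1.69 ± 0.22 without LPS, the difference was not called (adjusted p = 0.147 and 0.143).

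Fatty acid genes were lower in 9 of 12. Fads2, a desaturase, was at 0.281, 0.337 and 0.206 CPM against 3.54, 4.82 and 16.6 CPM (-4.92 ± 0.63, adjusted p = 7.37e-07, and -3.92 without itraconazole mouse 3), and Scd2 at 22.4, 24.2 and 67.8 against 220.0, 272 and 515 CPM (-3.13 ± 0.36, adjusted p = 1.54e-07, and -3.85 without OSW-1 mouse 3). Fasn, the synthase, was higher (0.90 ± 0.25). Of 13 LXR genes 3 were higher (1 without itraconazole mouse 3) and 6 lower. Pltp, a phospholipid carrier, gave -3.08 ± 0.39 (-3.67 without OSW-1 mouse 3), while the efflux pumps stayed close: Abca1 gave -0.40 ± 0.21 (adjusted p = 0.117, but 0.0393 with the mouse as a block) and Abcg1 0.38 ± 0.13 (adjusted p = 0.0206). Abcg1 lost its call without itraconazole mouse 3 (0.24, adjusted p = 0.157).

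Osbp, the protein that both compounds bind, was at 186, 187 and 182 CPM with OSW-1 and 177, 152 and 137 CPM with itraconazole (0.25 ± 0.09, adjusted p = 0.0172), above the 84.9, 91.5 and 84.2 CPM of LPS alone. That small difference was not called without itraconazole mouse 3 (0.17, adjusted p = 0.134) or mouse 2 (adjusted p = 0.0555). Among its relatives, Osbpl3 was lower (-1.18 ± 0.20, adjusted p = 2.72e-05) and Osbpl2 higher (0.45 ± 0.07). Ch25h, which makes the Osbp and LXR ligand 25-hydroxycholesterol, was at 0.762, 0.599 and 1.82 CPM against 7.58, 5.91 and 2.63 CPM (-2.31 ± 0.61, adjusted p = 0.0029, and -2.98 without OSW-1 mouse 3). With limma-voom and an estimated correlation within mice Ch25h was not called (-2.29, adjusted p = 0.0637). All 4 tested oxysterol genes were lower, among them the oxysterol receptor Gpr183 (-1.32 ± 0.49, with overlapping groups and -0.02 without itraconazole mouse 3), and 2 were called lower without itraconazole mouse 3 or without OSW-1 mouse 1. With limma-voom the count of 4 fell to 1, and Gpr183 and Cyp27a1 had adjusted p = 0.461 and 0.203.

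Coat genes and golgins were higher by small amounts, while other Golgi genes were mixed. In the COPI machinery, which returns cargo to the ER, 9 of 14 were higher and 2 lower, with a median of 0.31. Arf4 was at 657, 646 and 579 CPM against 465, 443 and 345 CPM (0.59 ± 0.09, adjusted p = 1.58e-05), and the alternative subunits Copg2 (-0.38 ± 0.07) and Copz2 (-0.96 ± 0.16) were the lower ones. In the COPII coat, which carries cargo out of the ER, 8 of 13 were higher (5 without itraconazole mouse 3), led by Sec24b (0.70 ± 0.11). Golgins and stacking proteins were higher in 6 of 13 and lower in none. Of 15 KDEL receptors and p24 cargo proteins 2 were higher and 5 lower (median -0.05), and of 10 Golgi stress genes 3 were higher and 3 lower (median -0.31). The largest rise among the 15 was that of Kdelr3, a receptor that retrieves ER proteins. Kdelr3 was at 20.3, 18.2 and 17.4 CPM against 5.59, 5.8 and 5.43 CPM (1.73 ± 0.29, adjusted p = 3.23e-05), and LPS alone gave 0.0615, 0.06 and 0.182 CPM. ER chaperones went down, with 9 of 17 lower and 1 higher, Calr at -0.76 ± 0.14 and Pdia4 at -0.68 ± 0.15, while the main chaperone Hspa5 was not called (0.23 ± 0.13, adjusted p = 0.142). Of 16 ER stress and degradation genes 8 were higher, with Herpud1 at 0.93 ± 0.15 and Sel1l at 0.63 ± 0.08, and 3 were lower, down to -1.65.

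Genes of protein synthesis were higher. All 24 ribosome biogenesis factors were called higher, with a median of 0.89. Rrs1 was at 71.5, 69.4 and 64.2 CPM against 25.7, 30.9 and 27.4 CPM (1.29 ± 0.18, adjusted p = 3.37e-06), Mybbp1a at 418, 397 and 329.5 against 176, 159.5 and 141 CPM (1.26 ± 0.18), and the snoRNP proteins Dkc1 and Gar1 gave 1.31 ± 0.34 and 1.30 ± 0.20. Of 20 cytosolic aminoacyl-tRNA synthetases 17 were higher, led by Iars (1.15 ± 0.18) and Vars (1.03 ± 0.15). Ribosomal proteins moved little, with 5 of 28 higher and 1 lower, the latter 0 to 2 with single libraries left out (median 0.05). Without LPS none of the 24 biogenesis factors was called between the compounds, as against 6.33% of all tested genes, and none by edgeR at an unadjusted p under 0.05, by DESeq2 or by limma-voom. The test of the difference between both contrasts called 22 of them higher with LPS, as against 12.4% of all tested genes.

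Serine and folate enzymes were higher in 5 of 11 and lower in none (3 without OSW-1 mouse 3). Aldh1l2, a mitochondrial folate enzyme, was at 69.5, 71.5 and 72 CPM against 17.5, 16.1 and 9.66 CPM (2.30 ± 0.30, adjusted p = 7.48e-07), and Shmt2, which splits serine, gave 1.55 ± 0.23. Of the integrated stress response factors, Atf4 and Ddit3 were not called in the main fit. Atf4 was at 1135, 1148 and 1204 CPM against 996, 909.6 and 759 CPM (0.39 ± 0.17, adjusted p = 0.0699). It was called higher with the mouse as a block (adjusted p = 0.0156), DESeq2 (0.0472), limma-voom (0.0482) and the compared groups alone (0.0373). Ddit3, the stress factor CHOP, gave -0.02 ± 0.25 (adjusted p = 0.962). Among ATF4 targets and regulators, 6 of 17 were higher, such as Atf5 (1.05 ± 0.17) and the cystine carrier Slc7a11 (1.17 ± 0.35), and Ddit4, which restrains mTORC1, was 1 of 2 lower (-1.23 ± 0.16; 1 was lower without itraconazole mouse 1 or 2 or OSW-1 mouse 2 or 3). Without LPS, 11 of the 17 were higher with OSW-1 (3.58% of all tested genes), Ddit3 by 1.23 ± 0.25 and Chac1 by 1.80 ± 0.40. NRF2 targets were mixed, with 8 of 20 higher and 4 lower: Nqo1 rose (2.20 ± 0.33), whereas Hmox1, the heme oxygenase, was at 469, 491 and 556 CPM against 3467, 2945 and 2408 CPM (-2.54 ± 0.31, adjusted p = 3.5e-07).

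Iron and heme genes were lower in 8 of 15 and higher in 1. The one higher gene was Slc40a1, the iron exporter ferroportin, at 127, 122 and 85.8 CPM against 44.8, 41.1 and 21.8 CPM (1.64 ± 0.39, adjusted p = 0.00133). Cd163, the receptor for haptoglobin-bound hemoglobin, was at 0, 0 and 0.206 CPM against 0.311, 0.689 and 1.37 CPM (-3.37 ± 0.78, adjusted p = 0.000902, and -2.71 without itraconazole mouse 3, all OSW-1 counts being of mouse 3). Among 14 amino acid carriers 5 were higher, led by Slc1a4 (1.75 ± 0.35) and Slc7a5, the large neutral amino acid carrier (1.59 ± 0.36), and 3 were lower, led by Slc7a8 (-2.17 ± 0.21) and the arginine carrier Slc7a2 (-1.43 ± 0.37). Cytosolic heat shock genes gave no call for Hspa1a or Dnajb1 (-0.88 ± 0.46 and 0.09 ± 0.08), though Hspa1a was called lower without itraconazole mouse 3 (-1.29, adjusted p = 0.0179). Proteasome subunits were higher in 8 of 22 and lower in none, with a median of 0.15.

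Glycolysis was lower almost throughout, with 21 of 22 genes called and a median of -1.13. Pfkfb3, which makes the activator of phosphofructokinase, was at 54.9, 53.8 and 83.8 CPM against 738, 675 and 895 CPM (-3.58 ± 0.17, adjusted p = 6.48e-14). LPS alone gave 784, 617 and 861 CPM, from which itraconazole was not called to differ (0.03 ± 0.16, adjusted p = 0.894) and OSW-1 was lower (-3.55 ± 0.17). Hexokinase Hk3 gave -1.75 ± 0.18, Ldha, the lactate enzyme, -1.73 ± 0.20, and Pdk1, a kinase that inhibits pyruvate dehydrogenase, -1.62 ± 0.23. Pfkp alone was not lower (0.30 ± 0.16, adjusted p = 0.112, or 0.0206 with the mouse as a block). Nuclear-encoded oxidative phosphorylation subunits had a median of 0.01, with 2 of 26 higher and 5 lower. No subunit was called lower without itraconazole mouse 3, and 1 without OSW-1 mouse 1 or 2.

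Lysosomal genes were lower in 24 of 26. Ctsb, cathepsin B, was at 2087, 2017 and 2016 CPM against 9025, 8711 and 8323 CPM (-2.09 ± 0.13, adjusted p = 3.91e-12). Psap, the saposin precursor, gave -2.57 ± 0.19, Lgmn, the asparaginyl protease, -2.61 ± 0.17 and Lamp1 -1.06 ± 0.10. LPS alone gave 21980, 18040 and 14550 CPM for Ctsb, so both compounds were below it. Npc2, which hands cholesterol out of the lysosome, was at 472, 500.1 and 632 CPM against 1879, 1829 and 1893 CPM (-1.80 ± 0.14, adjusted p = 3.19e-10). The factors that drive lysosomal genes were lower by less: Mitf gave -0.49 ± 0.14, Tfeb -0.55 ± 0.15 and Tfe3 -0.24 ± 0.07. Without LPS edgeR called no gene of the lysosomal list between the compounds (3 at an unadjusted p under 0.05, 0 by DESeq2 and 1 by limma-voom), and the difference of the contrasts was called lower for 24 of 26, as against 17.8% of all tested genes.

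Macrophage identity genes were lower with OSW-1. Of 20 tested resident-like and scavenger genes, a list written with earlier results of these data known, 17 were lower and none higher, with a median of -2.63. The complement gene C1qa was at 10.7, 18.4 and 45.5 CPM against 130.0, 140.3 and 357 CPM (-3.07 ± 0.40, adjusted p = 1.06e-06, and -2.44 without itraconazole mouse 3 and -3.84 without OSW-1 mouse 3), and C1qb and C1qc gave -2.89 ± 0.28 and -2.88 ± 0.32 (C1qc -3.49 without OSW-1 mouse 3). Mertk, the receptor for dying cells, was at 1.45, 1.5 and 2.44 CPM against 16.3, 17.9 and 30.4 CPM (-3.57 ± 0.27, adjusted p = 1.82e-10), and Mrc1, the mannose receptor, at 2.17, 1.61 and 4.2 against 18.2, 20.1 and 34.3 CPM (-3.17 ± 0.31). Tgfbi, a secreted matrix protein of macrophages, was at 1.81, 1.98 and 13.1 CPM with OSW-1 and 652, 1132 and 1935 CPM with itraconazole, a difference of -7.76 ± 0.54 (adjusted p = 3.44e-11, and -9.35 without OSW-1 mouse 3). OSW-1 mouse 3 was the highest of its group in C1qa, Mertk, Mrc1 and Tgfbi, as itraconazole mouse 3 was of its own.

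The cells carried macrophage markers in every library, and these too were lower with OSW-1 in 8 of 10. Lyz2 was at 1272, 1539 and 2739 CPM against 6174, 7586 and 17710 CPM (-2.50 ± 0.33, adjusted p = 8.96e-07, and -1.90 without itraconazole mouse 3), Cd68 at 136, 125 and 115 against 783, 699 and 598 CPM (-2.47 ± 0.14), and Fcgr1 at 43.9, 67 and 146 against 911, 923 and 900.1 CPM (-3.41 ± 0.29, and -4.04 without OSW-1 mouse 3). Spi1, the lineage factor PU.1, and Cd14, the LPS coreceptor, were not called, at 0.01 ± 0.09 and 0.02 ± 0.15. Csf1r and Adgre1 were lower by less than the others (-0.60 ± 0.15 and -0.68 ± 0.12). Summed over the marker list, levels ran from 10554 to 13530 CPM with OSW-1 and from 21503 to 35308 CPM with itraconazole.

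Genes that mark other cell types were at low levels, and some moved with the compounds. Neutrophil genes summed to 3.37 to 5.71 CPM with OSW-1 and 4.85 to 18.4 CPM with itraconazole, and 3 of 6 tested were lower (S100a8, S100a9 and Ngp), none without itraconazole mouse 3. Ly6g, Elane, Retnlg and Prtn3 had no count in the 6 libraries. T and NK cell genes reached at most 2.69 CPM and B cell genes 1.72 CPM, with Cd3d, Cd3e, Cd3g and Pax5 at 0 and no tested member called. Of 8 dendritic cell genes 3 were tested, and Ccr7 and Zbtb46 were higher, the latter with a call lost without itraconazole mouse 2 or OSW-1 mouse 2 or 3. They summed to 31.1 to 59 CPM with OSW-1 and 4.17 to 6.6 CPM with itraconazole, nearly all of it Ccr7, with Siglech at 0. Kit, the one tested mast cell gene of 8, was at 3.33, 4.3 and 5.95 CPM against 0.497, 0.516 and 0 CPM (3.74 ± 0.63, adjusted p = 2.98e-05, and 3.15 without itraconazole mouse 3), with Cpa3, Mcpt4, Fcer1a and Ms4a2 at 0. Of 8 erythroid and platelet genes 2 were tested and not called, with sums of 294 to 581 and 269 to 529 CPM, nearly all Pf4, the platelet factor that macrophages also make, with Hba-a1 and Hbb-bs at 0. Stromal and endothelial genes were higher in 2 of 10 (Pdgfrb and, with a call lost without itraconazole mouse 2 or 3 or OSW-1 mouse 3, Lum) and lower in 3 (1 without itraconazole mouse 2), with sums of 29.4 to 37 CPM and 15.7 to 29.3 CPM. The part of such cells in the results above was not tested.

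Mitosis genes were mixed between the compounds, with 3 of 20 higher and 7 lower. Top2a was at 9.67, 10.1 and 10.0 CPM against 5.71, 5.8 and 6.29 CPM (0.74 ± 0.10, adjusted p = 1.45e-06), while Aurkb was lower (-1.90 ± 0.17). Without LPS, Top2a was at 308, 314 and 263 CPM with OSW-1 and 428, 413 and 363 CPM with itraconazole, so its order was the opposite there (-0.44 ± 0.09, adjusted p = 0.00365). Tyms, the thymidylate synthase, was at 28.3, 26 and 34.7 CPM against 6.46, 7.29 and 5.6 CPM (2.20 ± 0.20, adjusted p = 2.91e-09). Cell death genes were lower in 7 of 22 and higher in 3. Mcl1, a survival factor, was at 359, 352 and 358 CPM against 900.3, 853 and 925 CPM (-1.33 ± 0.10, adjusted p = 1.84e-10), and its antagonist Bcl2l11, or BIM, was higher (0.97 ± 0.15). Among 18 p53 targets 7 were higher, with Gadd45a at 1.26 ± 0.22 and Btg2 at 0.97 ± 0.15, and 1 was lower (none without mouse 1 or 2 of either group).

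Several of the largest changes lay outside these groups. Scube3, a secreted signalling glycoprotein, was at 39.9, 53 and 44.9 CPM with OSW-1 and 0, 0.23 and 0.0572 CPM with itraconazole (8.82 ± 0.60, adjusted p = 2.28e-11, the itraconazole counts being mostly of mouse 2). Lad1, a filament-anchoring protein, was at 315, 336 and 338 against 6.46, 7.8 and 3.26 CPM (5.82 ± 0.36), Shisa3 at 468, 496 and 406 against 13.1, 11.5 and 4.52 CPM (5.56 ± 0.37), and the protease Adamts4 at 45.5, 51.5 and 42.5 against 1.43, 1.03 and 0.915 CPM (5.37 ± 0.38). With LPS alone each of these was at most 2.64 CPM, the highest value of Shisa3. Fscn1, an actin bundler of dendritic cells, and Ccr7, the receptor that guides them to lymph nodes, were higher by 4.90 ± 0.30 and 3.16 ± 0.34. Igfbp4, which binds insulin-like growth factors, was at 225, 284 and 306 against 12.1, 12.2 and 22.4 CPM (4.12 ± 0.33), and Lix1 gave 3.00 ± 0.52.

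Among the largest falls, several rest on very few reads with OSW-1. Prss46, a serine protease gene, had 1 count over the OSW-1 libraries and 6.89, 7.29 and 12.9 CPM with itraconazole, a ratio of 733 (95% counting interval 131 to 29000). F13a1, a coagulation factor chain made by macrophages, had 3 counts and a ratio of 54.9 (18.3 to 270.4). Its 3 counts were all of OSW-1 mouse 3, and itraconazole mouse 3 was at 4.97 CPM against 0.683 and 0.344 CPM in mice 1 and 2. The fitted value of -5.63 ± 1.33 was -3.65 without itraconazole mouse 3 (adjusted p = 0.0443) and -9.07 without OSW-1 mouse 3, where no OSW-1 count is left and the value depends on the prior count, and the call was lost with limma-voom (adjusted p = 0.089). The purinergic receptor P2ry12 had 2 counts and a ratio of 45.1 (11.9 to 381). Zfyve28 had no count with OSW-1 and was at least 11.6-fold lower, taking 3 counts over the group as the floor, with even counts halved. Its call ended without itraconazole mouse 3 (adjusted p = 0.158) and with limma-voom (0.0964). The intervals and the floor cover counting error alone. Htr2b, a serotonin receptor, was at 0.161, 0.187 and 0.585 CPM against 15.6, 13.1 and 6.98 CPM (-5.20 ± 0.47, adjusted p = 2.97e-09, and -6.06 without OSW-1 mouse 3), and Ly6a, the surface protein Sca-1, at 0.361, 0.187 and 0.55 against 18.3, 12.7 and 18.5 CPM (-5.46 ± 0.56). Sirpb1c (-5.49 ± 0.55, and -4.51 without itraconazole mouse 3) shares sequence with its neighbours of the Sirpb1 family. Nxpe5 (-7.89 ± 1.28, and -5.71 without itraconazole mouse 3) reached 32.2 CPM in itraconazole mouse 3 against 2.36 and 3.21 in mice 1 and 2.

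Beside LPS alone the compounds stood at different places. OSW-1 with LPS differed from LPS alone in 9403 genes (71.4%) and itraconazole with LPS in 7164 (54.4%), and both contrasts share the LPS control libraries. For Csf2 the log2 fold changes over LPS alone were 11.70 ± 0.62 with OSW-1 and 3.85 ± 0.76 with itraconazole, and for Il6 9.16 ± 0.55 and 6.25 ± 0.49. In those genes both compounds stood above LPS alone. Ccl22 gave 7.97 ± 0.49 and 0.84 ± 0.40, Cd40 3.05 ± 0.28 and 0.14 ± 0.26, and the itraconazole value of neither was called (adjusted p = 0.0817 and 0.684). Arg1 lay on opposite sides, at -3.21 ± 0.63 and 2.24 ± 0.56, as did Htr2b (-3.66 ± 0.49 and 1.54 ± 0.34). Over the glycolysis list the medians were -1.28 and -0.08, over the lysosomal list -1.77 and -0.63, and over the interferon-stimulated list -1.16 and -0.44.

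**Figure D4:**
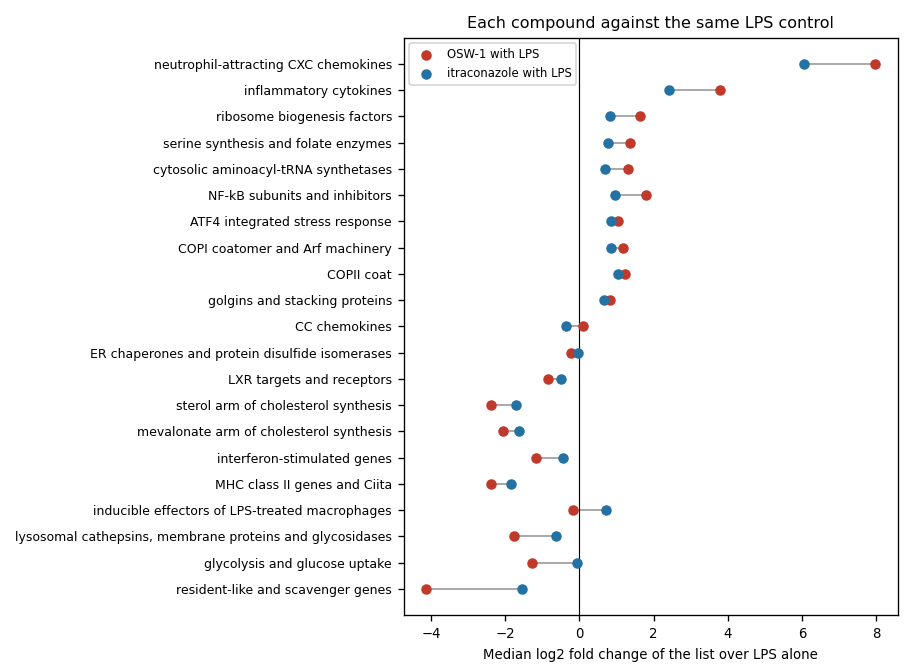
Median log2 fold change over LPS alone of 21 gene lists for OSW-1 with LPS (red) and itraconazole with LPS (blue), joined by a grey line; both use the same 3 LPS libraries. Neutrophil chemokines reach 7.96 and 6.04, and glycolysis lies at -1.28 with OSW-1 and near 0 with itraconazole.

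Without LPS fewer genes were called between the same compounds in mice of the same numbers. There 834 genes were called (6.33%), 472 higher and 362 lower with OSW-1, and the total ran from 176 to 677 with single libraries left out, the least being without OSW-1 mouse 1. Of the 3041 genes higher with LPS, 224 were also higher without it (7.37% of those with LPS, 47.5% of the 472), and of the 3358 lower, 202 were also lower (6.02%, and 55.8% of the 362). The difference of the contrasts itself was called for 3968 genes (30.1%), in which LPS cannot be told apart from the added time. Sterol and interferon genes were lower in both states: 11 of 12 sterol-arm genes and 26 of 37 interferon-stimulated genes were lower with OSW-1 without LPS, such as Ifit3 (-2.11 ± 0.33, adjusted p = 0.000681) and Dhcr7 (-0.87 ± 0.18, adjusted p = 0.00511). Ccl22, Tgfbi and Igfbp4 were not called there (-0.25 ± 0.69, 0.19 ± 0.39 and -0.41 ± 0.29). Il10 and Dusp1 changed order: without LPS Il10 was lower with OSW-1 (-1.43 ± 0.35, adjusted p = 0.0138) and Dusp1 higher (1.22 ± 0.18, adjusted p = 0.000365), the reverse of their order with LPS.

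**Figure D5:**
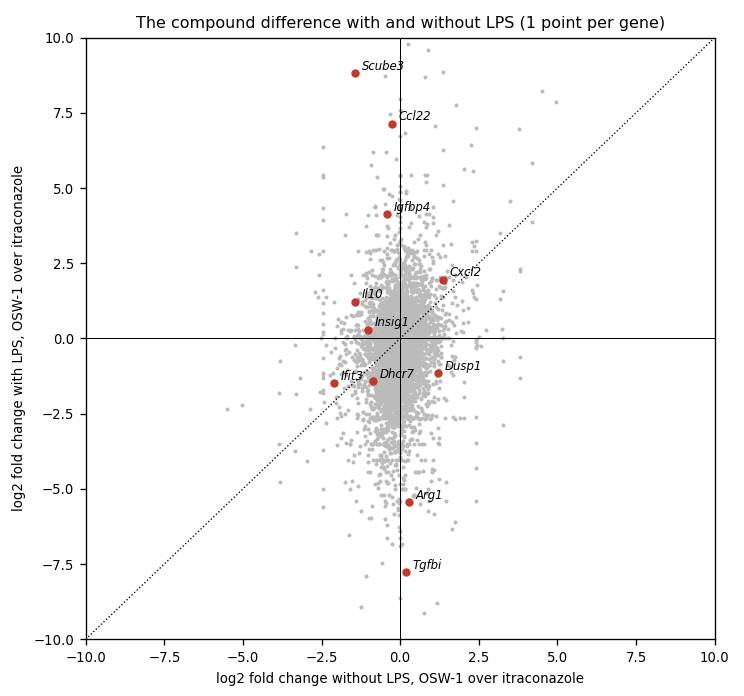
Log2 fold change of OSW-1 over itraconazole without LPS (horizontal) and with LPS (vertical), 1 point per tested gene, with a dotted line of equal values; values of genes near 0 counts depend on the fit's prior count. Ccl22, Igfbp4, Tgfbi and Arg1 lie along the vertical axis, Ifit3 and Dhcr7 nearer the dotted line, and Il10 and Dusp1 in the quadrants of opposite sign.

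The odd and even counts go with the groups of this comparison, and their part in the results cannot be told apart from the compounds by design. Untreated Ch25h-/- against wild-type macrophages carry the same split of odd and even counts. There 1 gene was called unstimulated (0.00759%) and 30 with LPS (0.228%). Genotype does not vary within a mouse, so no fit with the mouse as a block was made for it. Without untreated wild-type mouse 3 the calls were 361 unstimulated and 2396 with LPS. Halving the counts of all libraries with even counts alone left 3211 genes higher and 3227 lower between the compounds with LPS.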

How the data were processed

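Polyadenylated RNA of mouse macrophages was sequenced from stranded TruSeq libraries, per the labels' protocols. Reads were aligned with GSNAP to GRCm38 (mm10) and counted with featureCounts of Subread 1.5.2, per the submitters' processing notes, which also name FastQC 0.11.9 and edgeR 3.26.8. The strand setting of the counting is not given in the sources used here, so overlapping and antisense genes are uncertain. The authors deposited whole-number counts per gene for 30 libraries, and no other unit was used. Of 30538 genes 11735 had no count. Symbols are those of GENCODE vM21 for the 30126 genes that matched it, and of the deposited table for the rest. Positions are also from GENCODE vM21.

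The 30 libraries, 10 groups of 3, entered 1 edgeR 4.0.16 quasi-likelihood fit (R 4.3.3) with TMM scaling; genes failing filterByExpr (minimum count 10) had been removed, leaving 13173. Each contrast's p-values were adjusted by Benjamini-Hochberg over all of them, and a gene was called at an adjusted p under 0.05. The standard error of a log2 fold change was taken as its size divided by the square root of F. Marker genes of other cells that failed the filter were read as counts. The labels give each library a mouse number, taken here as 1 animal across the treatments of a genotype, and deviations from the group means of same-numbered libraries correlated at 0.136, 0.0481 and 0.181, so the fit with the mouse as a block is given beside results whose call it changes. Nothing says that cultures of 1 mouse were repeated, so the spread is between mice.

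Genes were named by this rule: the 12 largest and 12 smallest changes among called, non-overlapping genes with an absolute log2 fold change of at least 1 and an average log2 CPM of at least 2, up to 3 called members of each of 58 lists with the smallest p, and fixed genes of interest (200 genes in all). Another 59 list members were added after their values were seen. Some of these genes are not reported here. The comparison, lists and rule were chosen with earlier results of these data known. Motifs were searched in RefSeq promoters (GRCm38.p6), 1 start per gene. Alternatives were DESeq2 1.42.0 and its size factors, limma 3.58.1 voom, no filter, the block, the compared groups alone, even counts halved and single libraries left out. Tested on simulated counts for the comparison of OSW-1 with LPS against itraconazole with LPS (13075 genes in the run), the fit recovered 61.2% of 1.5-fold, 89.6% of 2-fold and 89.4% of 4-fold changes and called 5 of 12875 unchanged genes. Only 67, 67 and 66 genes were changed at these sizes, far fewer than were called in the data. The simulated counts held no even-only libraries and no mouse standing apart over many genes. Such rates therefore need not hold for the data.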

Additional observations from a re-analysis of the deposited data

Results flagged for a closer look

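Each gene below was picked because the difference between OSW-1 and itraconazole was itself different with LPS and without it, by the interaction term of the edgeR fit. Values are the contrast with LPS minus the contrast without, on the log2 scale. The odd counts of the OSW-1 libraries with LPS go with the LPS contrast alone, so compound and counting cannot be told apart here. Nor can LPS and the stimulation time, which the labels give to the libraries with LPS alone. Among genes higher with OSW-1 and LPS the differences were 10.26 for Scube3 (adjusted p = 0.000742), 7.78 for Cx3cl1 (3.21e-10), 7.39 for Ccl22 (5.8e-07), 6.12 for Adamts4 (0.000375), 4.72 for Fscn1 (0.00153), 4.54 for Igfbp4 (2.46e-08) and 2.89 for Lix1 (0.0034). Scube3, Adamts4 and Fscn1 have few counts in some groups, so their sizes depend on the prior count and are no bounds.

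Among genes lower with OSW-1 and LPS the differences were -9.88 for Prss46, -7.96 for Tgfbi, -6.91 for Zfyve28, -6.79 for Nxpe5, -6.13 for Sirpb1c, -5.73 for Arg1, -5.64 for Htr2b, -5.60 for Cx3cr1, -5.57 for F13a1, -5.43 for Ly6a, -5.27 for Ccl8 and -5.02 for P2ry12. Prss46, Zfyve28, F13a1 and P2ry12 had 3 counts or fewer with OSW-1 and LPS, and their sizes are no bounds either. The acute-phase gene Saa3 differed by -3.01, Ch25h by -2.97, the mannose receptor Mrc1 by -2.44, Hmox1 by -2.31 and Lamp1 by -0.92.

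Sterol and stress genes differed as well, and in several the larger effect was without LPS. Insig1 differed by 1.32, Cyp51 by 1.19 and Hmgcs1 by 0.76, each being lower with OSW-1 without LPS. Abca1 differed by -1.35, Abcg1 by -0.52, Ddit3 by -1.24 and Atf3 by -1.47. Il10 (2.66) and Top2a (1.19) were higher with OSW-1 with LPS and lower without it. Kdelr2, a retrieval receptor of the Golgi, differed by 0.30 (adjusted p = 0.0334), being 0.49 with LPS and 0.19 without.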

How the results depend on the processing

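The 6399 genes called between OSW-1 with LPS and itraconazole with LPS became 6397 with DESeq2 size factors, 5948 with no filter, 6438 with even counts halved, 6607 with DESeq2, 6475 with limma-voom, 5168 with the compared groups alone and 5437 to 6151 with single libraries left out. With the mouse as a replicate block 6715 were called, 3228 higher and 3487 lower; the block also gave 1243 without LPS and 4405 for the difference of the contrasts. Without LPS the 834 became 1313 with DESeq2, 1637 with limma-voom, 1924 with the compared groups alone and 176 to 677 with single libraries left out. Itraconazole with LPS against LPS alone fell from 7164 to 4571 with the compared groups alone and ran from 6168 to 7364 with single libraries left out. The cause of these shifts was not tested, except that fewer libraries enter a fit of the compared groups alone.

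For Ch25h-/- against wild-type the 1 gene called unstimulated became 5 with DESeq2 size factors, 2 with no filter, 6 with even counts halved, 129 with DESeq2, 15 with limma-voom and 0 with the compared groups alone, and 1 to 361 with single libraries left out. Genotype does not vary within a mouse, so the block was not run there. With LPS the 30 became 81 with no filter, 58 with even counts halved, 230 with DESeq2, 1 with limma-voom and 0 with the compared groups alone, and 0 to 2396 with single libraries left out.

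Of 259 named genes 223 kept their direction and side of the threshold under all 13 alternatives run for them, 36 lost or gained a call under at least 1, and none was reversed. With the block, calls were gained for Abca1, Atf4, Cd74 and Pfkp and lost for Atf3 among genes named in the text. Limma-voom with an estimated correlation within mice ended the calls on Zfyve28, F13a1, Ch25h, Cyp27a1, Ngp, S100a8, Cyp51, Atf3, Gpr183 and H2-Eb1 and gained Atf4. DESeq2 ended those on Lum and Tnfsf9 and also gained Atf4. With the compared groups alone the calls on S100a8, Osbp, Tnf, Abcg1, Atf3, Ccl6, Gbp3, Gpr183 and Pdcd1lg2 ended and Insig1, Abca1, Atf4 and Pfkp were gained, and the count of COPII members called higher fell from 8 to 4. Of 1508 list counts 1380 stayed within 1.5 times. Depth limits the genes with few counts, whose fold sizes depend on the prior count.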
